A study of Mus musculus with 9 samples.

Results

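The 7 sirtuin genes, *Sirt1* to *Sirt7*, were examined in RNA sequencing of primary B cells from mouse spleen. They were taken by gene symbol from the deposited expression table, where they are 7 of 17596 genes, and all 7 were among the 10823 genes tested, those averaging 1 FPKM or more over the libraries. The control mice carried *Mb1Cre*, a Cre recombinase allele active in cells of the B lineage. The *Mct1*-deficient mice, *Mct1f/fMb1Cre* (labelled *Mctf/fMb1Cre*), carried *Mb1Cre* and 2 floxed copies of *Mct1*, the gene of a lactate and pyruvate transporter that the table lists as *Slc16a1*. B cells were unstimulated (day 0; 2 control and 2 *Mct1*-deficient libraries) or had 3 days of LPS (10 μg/mL), a ligand of Toll-like receptor 4, and IL-4 (50 ng/mL), a cytokine that directs switching to IgG1 (day 3; 2 control and 3 *Mct1*-deficient libraries). The mice were 6 to 8 weeks old, both genotypes carried Cre, and the labels name no mouse, litter or sex, so p-values measure the spread between libraries, which may be technical.

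Sirtuins are enzymes that remove acetyl and longer acyl groups from lysine residues and consume NAD+ with each group removed, releasing nicotinamide, which inhibits them. SIRT1, SIRT6 and SIRT7 are found mainly in the nucleus and act on histones and transcription factors, SIRT2 is mainly cytosolic, and SIRT3, SIRT4 and SIRT5 are mitochondrial. Because they depend on NAD+, they are often described as linking the metabolic state of a cell to acetylation. SIRT1 was among the histone-modifying enzymes that the study followed as proteins, and it reported more SIRT1 protein in activated *Mct1*-deficient than control B cells. The study also used nicotinamide as a sirtuin inhibitor. It reported that this raised the reduced share of IgG cells and the reduced AID, the enzyme of class switching, in *Mct1*-deficient cells. The values given here are those of the transcripts.

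The values were fragments per kilobase of transcript, relative to the mapped fragments of the library (FPKM), which are scaled to transcript length, so that levels can be set side by side between genes. Summed over all genes they came to 477079 to 491459 in the 4 day 0 libraries and to 547355 to 563586 in the 5 day 3 libraries. Depth is unknown, since FPKM hold no read counts. *Slc16a1* had 22.6 and 23.0 FPKM in the control and 9.50 to 10.8 FPKM in the *Mct1*-deficient libraries on day 3, a log2 fold change of -1.11 (SE 0.0712, adjusted p = 9.07e-06 from limma). On day 0 it had 3.80 and 4.33 FPKM in the control and 3.71 and 4.06 FPKM in the libraries labelled *Mct1*-deficient (log2 fold change -0.05, adjusted p = 0.844), so the deletion could not be seen in this transcript on day 0. The day 0 libraries also held markers of other cells. The 8 myeloid markers summed to 1099 to 2157 FPKM on day 0 and to 16.2 to 25.8 FPKM on day 3, and 7 of the 8 were at least 10 times higher on day 0. The 6 T and NK cell markers summed to 38.0 to 44.8 and to 1.86 to 2.08 FPKM, and the 4 erythroid markers to 84.3 to 154 and to 0.03 to 0.52 FPKM, with 1 erythroid marker at 0 in both control libraries and 2 at 0 in all 3 *Mct1*-deficient libraries of day 3. The 2 platelet markers summed to 3.17 to 9.06 FPKM on day 0 and to 2.11 to 3.79 FPKM on day 3. The 4 B cell markers *Cd79a*, *Cd79b*, *Ms4a1* and *Pax5* were above 0 in all libraries and summed to 3237 to 3641 FPKM on day 0 and 1487 to 1552 FPKM on day 3. The Y-linked *Ddx3y* was at 31.1 FPKM in 1 of the 4 day 0 libraries, an *Mct1*-deficient one, and at 0.02 to 0.24 FPKM in the other 3, against 14.7 to 16.9 FPKM in all 5 day 3 libraries. In bulk RNA, fewer cells of a type and less transcript per cell cannot be told apart.

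In the day 0 libraries, which also held markers of other cells, the 7 transcripts spanned a wide range of levels, with *Sirt7* and *Sirt2* far above the rest. *Sirt7* had 72.0 to 75.9 FPKM and *Sirt2* 46.3 to 49.3 FPKM over the 4 day 0 libraries. *Sirt1* followed with 15.4 to 17.1 FPKM and *Sirt6* with 14 to 16.3 FPKM, and the mitochondrial members were lowest, *Sirt4* at 7.39 to 8.37, *Sirt3* at 5.94 to 7.32 and *Sirt5* at 3.69 to 5.03 FPKM. Within each genotype this order had no overlap between neighbours on day 0, although *Sirt1* and *Sirt6* differed only 1.07-fold in the control and 1.13-fold in the *Mct1*-deficient mean. The family summed to 173 ± 4.66 FPKM (SD, n = 2) in the control and 170 ± 0.834 FPKM (SD, n = 2) in the *Mct1*-deficient day 0 libraries.

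**Figure D1:**
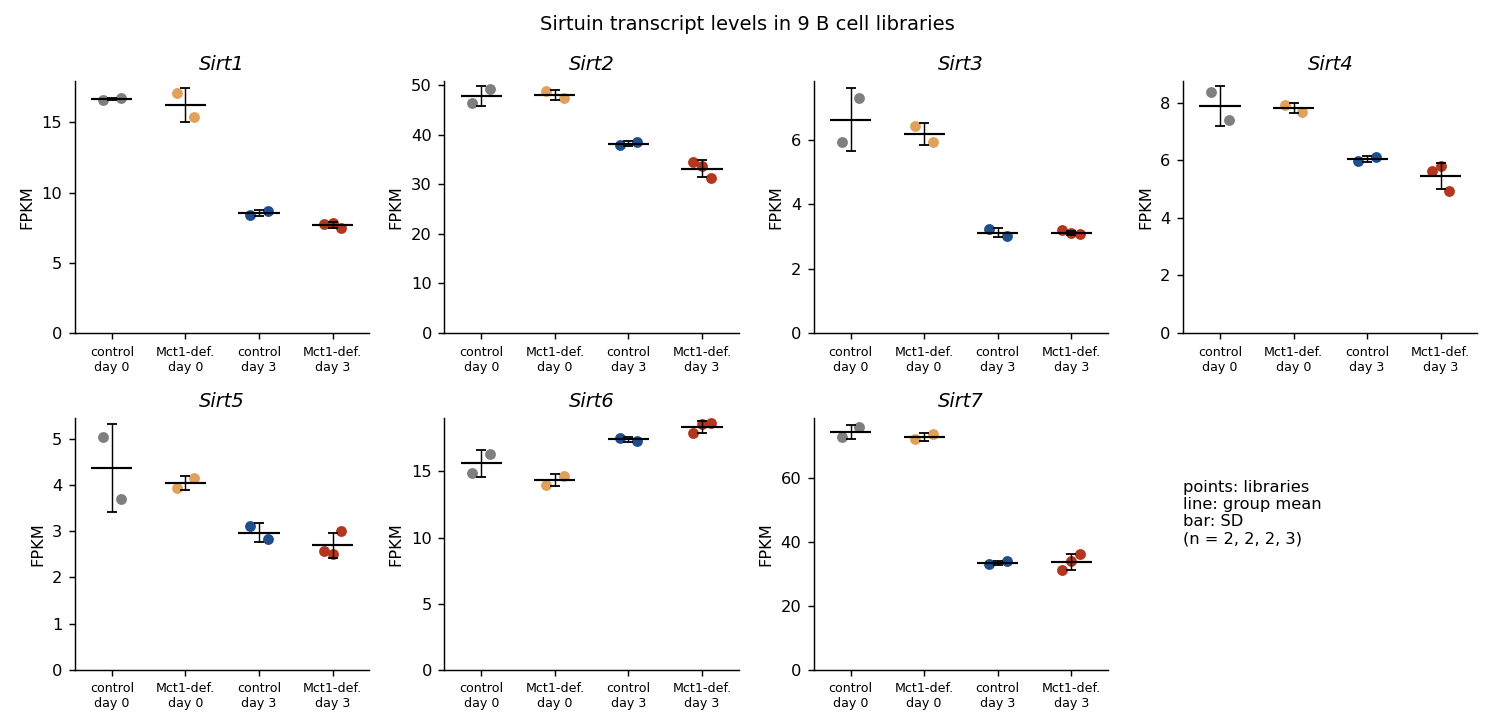
Level of each sirtuin transcript in FPKM (y axes from 0) in the 4 groups (x axes), with 1 point per library, a line at the group mean and bars of 1 SD (n = 2, 2, 2 and 3). 6 genes are lower in all 5 day 3 libraries than in any of the 4 day 0 libraries and *Sirt6* is higher in all 5, while the genotypes lie close together on each day.

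After 3 days with LPS and IL-4, 6 of the 7 sirtuin transcripts were lower and 1, *Sirt6*, was higher in both genotypes, as deposited. Any single other scaling of the libraries lost or turned at most 3 of these calls in the control and 1 in *Mct1*-deficient cells. Across these scalings the calls affected were those of *Sirt2*, *Sirt4*, *Sirt5* and *Sirt6* in the control and that of *Sirt5* in *Mct1*-deficient cells. A gene was taken as changed at an adjusted p under 0.05 from limma on log2(FPKM + 1), a scale that understates the change of low genes. By this rule 37.0% of all tested genes rose and 47.5% fell in the control, and 36.4% rose and 49.1% fell in *Mct1*-deficient cells, so a change was the usual outcome for a gene. With a log2 fold change above 0.5 in size required as well, 3 of the 7 passed in the control (57.8% of tested genes) and 4 of the 7 in *Mct1*-deficient cells (56.5%). All 7 were without overlap between days within each genotype (91.9% of tested genes in the control and 89.8% in *Mct1*-deficient cells), and all 7 were also without overlap between the 4 day 0 and the 5 day 3 libraries (81.7% of tested genes). The median log2 fold change of the 7 was -0.42 in the control and -0.52 in *Mct1*-deficient cells, and that of all tested genes was -0.12 and -0.14. There was no day 3 group without LPS and IL-4, so the stimulus cannot be told apart from time in culture. Nor can the change in other cells' markers be told apart from the day. *Ddx3y* followed the day except in *Mct1*-deficient library 1 of day 0, at 31.1 FPKM. For all 7 genes that library lay on the day 0 side. The part of each of these in the sirtuin changes was not tested.

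Of the nuclear members, *Sirt7*, which acts on histone H3 and at ribosomal DNA, fell most. It had 72.8 and 75.9 FPKM in the control and 72.0 and 73.8 FPKM in the *Mct1*-deficient libraries on day 0. On day 3 it had 32.9 and 33.9 FPKM in the control and 31.3, 33.9 and 36.2 FPKM in the *Mct1*-deficient libraries. The day 3 level was thus 44.9% of the day 0 level in the control and 46.3% in *Mct1*-deficient cells, with log2 fold changes of -1.13 (SE 0.0611, adjusted p = 1.20e-08) and -1.09 (SE 0.0557, adjusted p = 6.97e-09). The gene lies on the reverse strand of chromosome 11 (GRCm38 120618372 to 120625240) and shares 3.46% of its exonic bases with other genes, 124 of them with *Mafg* on the same strand, whose mean was close to 12 FPKM on both days.

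*Sirt1*, whose protein deacetylates histones, p53 and FOXO factors, had 16.6 and 16.7 FPKM in the control and 17.1 and 15.4 FPKM in the *Mct1*-deficient libraries on day 0. On day 3 it had 8.40 and 8.72 FPKM in the control, and 7.76, 7.85 and 7.46 FPKM in the *Mct1*-deficient libraries. Every day 3 value was below every day 0 value, and the mean fell to 51.4% of the day 0 level in the control (log2 fold change -0.89, SE 0.0618, adjusted p = 1.09e-07) and to 47.3% in *Mct1*-deficient cells (log2 fold change -0.99, SE 0.0564, adjusted p = 1.79e-08). *Sirt1* lies on the reverse strand of chromosome 10 (GRCm38 63319005 to 63381704), and 1.22% of its exonic bases are shared with an antisense gene, *Gm16145*.

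The start regions of *Sirt1*, the member followed in the study, and of *Sirt2*, the one member that passed between genotypes on day 3 (adjusted p = 0.0242, and 0.0539 to 0.138 under the alternatives that lost the call), are shown as letters, since both were among the transcripts that moved. They come from RefSeq windows on GRCm38.p6 that run from 250 bases before to 50 bases after the start, and all 7 genes matched at least 1 window. Only bases outside annotated exons are printed, 235 for *Sirt1* (chr10:63339051-63339285, reverse strand, positions -250 to -16 with the start site at 0) and 94 for *Sirt2* (chr7:28766641-28766734, forward strand, positions -111 to -18). The *Sirt1* stretch lies inside the gene span given above, which on the reverse strand starts at 63381704. The RefSeq start used here is thus not the start of that span. Capitals mark CACGTG, the E-box.
Sirt1: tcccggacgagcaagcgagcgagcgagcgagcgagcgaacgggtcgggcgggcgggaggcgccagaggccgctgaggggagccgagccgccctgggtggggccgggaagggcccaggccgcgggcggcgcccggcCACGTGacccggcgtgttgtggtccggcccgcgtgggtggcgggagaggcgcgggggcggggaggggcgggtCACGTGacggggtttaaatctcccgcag
Sirt2: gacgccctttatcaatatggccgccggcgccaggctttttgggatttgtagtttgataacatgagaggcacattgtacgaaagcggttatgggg

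6 motifs were searched on both strands of the windows. They were the E-box CACGTG, the GC box GGGCGG, the CCAAT box CCAAT, the TATA box TATAAA, the ETS site CCGGAAG and the NRF1 site GCATGCGC. Of 32851 RefSeq promoter windows of the same length, 7.15% held the E-box, 35.7% the GC box, 37.4% the CCAAT box, 13.6% the TATA box, 8.86% the ETS site and 2.71% the NRF1 site. The *Sirt1* window held 2 E-boxes, at -115 to -110 and at -43 to -38, neither of them overlapping another motif, and 7 GC boxes, of which the pair at -205 to -200 and -201 to -196 overlap each other. Its GC content was 79.0%, against a median of 52.7% over all windows, and no window of the other 6 members held an E-box. The *Sirt2* window was 50.0% GC and held 1 GC box and 2 CCAAT boxes, none of them within the stretch printed. A match describes the letters and is not evidence of a bound factor.

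*Sirt6*, a deacylase of histone H3 that is known for genome maintenance, was the one member that rose. On day 0 it had 14.9 and 16.3 FPKM in the control and 14 and 14.7 FPKM in the *Mct1*-deficient libraries. On day 3 it had 17.6 and 17.3 FPKM in the control and 17.9, 18.6 and 18.7 FPKM in the *Mct1*-deficient libraries, so all 5 were above the highest day 0 value. The log2 fold change was 0.15 in the control (SE 0.0569, adjusted p = 0.0282) and 0.34 in *Mct1*-deficient cells (SE 0.0519, adjusted p = 8.59e-05). The control change did not pass with control library 1 of day 0 left out (0.09, adjusted p = 0.214), with either control library of day 3 left out (0.14 and 0.16, adjusted p = 0.105 and 0.0675), or with only the 4 control libraries in the fit (0.15, adjusted p = 0.0605), and it was -0.04 (adjusted p = 0.524) once the libraries were scaled to a common FPKM total. *Sirt6* lies on the reverse strand of chromosome 10 (GRCm38 81621785 to 81627797) and shares no exonic base with another gene.

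*Sirt2*, the mainly cytosolic member and a deacetylase of tubulin, was lower in every day 3 library than in any day 0 library. It had 46.3 and 49.3 FPKM in the control and 48.8 and 47.4 FPKM in the *Mct1*-deficient libraries on day 0. On day 3 it had 37.8 and 38.5 FPKM in the control and 34.5, 33.8 and 31.2 FPKM in the *Mct1*-deficient libraries. The levels left were 79.9% and 69.0% of day 0, with log2 fold changes of -0.32 (SE 0.0555, adjusted p = 2.57e-04) and -0.52 (SE 0.0507, adjusted p = 1.79e-06). With median-of-ratios scaling the control value was -0.11 and did not pass (adjusted p = 0.125). *Sirt2* lies on the forward strand of chromosome 7 (GRCm38 28766735 to 28788661) and shares 42 exonic bases with *Nfkbib*, on the opposite strand.

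Among the mitochondrial members, *Sirt3*, the main mitochondrial protein deacetylase, had the largest fall. It had 5.95 and 7.32 FPKM in the control and 6.43 and 5.94 FPKM in the *Mct1*-deficient libraries on day 0. On day 3 its values lay between 3.02 and 3.22 FPKM in all 5 libraries. The means fell to 47.0% and 50.4% of day 0 (log2 fold changes -0.88 and -0.80, SE 0.0900 and 0.0822, adjusted p = 2.89e-06 and 2.92e-06). *Sirt3*, on the reverse strand of chromosome 7 (GRCm38 140863666 to 140882309), shares 12.7% of its exonic bases with 2 genes on the opposite strand, 418 with *Ric8a* and 342 with *Psmd13*. *Psmd13* went from a mean of 35.4 to 60.4 FPKM and *Ric8a* from 27.5 to 16.5 FPKM between day 0 and day 3, and reads of these genes could enter the *Sirt3* value if strand was not used in counting, which is not given in the sources used here.

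*Sirt4*, which acts as a lipoamidase and ADP-ribosyltransferase of mitochondrial enzymes, had 8.37 and 7.39 FPKM in the control and 7.93 and 7.69 FPKM in the *Mct1*-deficient libraries on day 0. On day 3 it had 5.97 and 6.12 FPKM in the control and 5.62, 5.81 and 4.93 FPKM in the *Mct1*-deficient libraries, which left 76.7% and 69.8% of day 0 (log2 fold changes -0.33 and -0.45, adjusted p = 0.00291 and 1.64e-04). The control value of *Sirt4* did not pass with median-of-ratios scaling or quantile normalization (-0.15 and -0.10, adjusted p = 0.109 and 0.236). *Sirt5*, which removes succinyl, malonyl and glutaryl groups, had 5.03 and 3.69 FPKM in the control and 3.93 and 4.14 FPKM in the *Mct1*-deficient libraries on day 0. Its day 3 values were 3.11 and 2.82 FPKM in the control and 2.56, 2.51 and 3.00 FPKM in the *Mct1*-deficient libraries, which left 68.0% and 66.7% of day 0 (log2 fold changes -0.42 and -0.45, adjusted p = 0.00560 and 0.00214). The control value of *Sirt5* leaned on the first day 0 library, and without it the log2 fold change was -0.24 (adjusted p = 0.0582). *Sirt4* lies on chromosome 5 (GRCm38 115478010 to 115484725, reverse strand) and *Sirt5* on chromosome 13 (GRCm38 43365496 to 43395203, forward strand), and neither shares an exonic base with another gene.

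After activation the family had a smaller sum and another makeup, which is given as a description without a test. The summed level fell from 173 to 110 FPKM in the control mean and from 170 to 104 FPKM in the *Mct1*-deficient mean. *Sirt7* held 42.9% of the summed FPKM in the control and 43.0% in *Mct1*-deficient cells on day 0, and 30.4% and 32.4% on day 3. *Sirt6* went from 9.01% and 8.45% to 15.9% and 17.6%, and *Sirt2* from 27.6% and 28.3% to 34.8% and 31.8%. The 3 mitochondrial genes together kept between 10.4% and 11.4% of the sum in every library. On day 3 *Sirt6* stood above *Sirt1*, 17.3 to 18.7 against 7.46 to 8.72 FPKM, the reverse of their day 0 order within each genotype. *Sirt2* (37.8 and 38.5 FPKM) stood above *Sirt7* (32.9 and 33.9 FPKM) in the control, while in *Mct1*-deficient cells their ranges overlapped, and the ranges of *Sirt3* and *Sirt5* overlapped in the control.

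**Figure D2:**
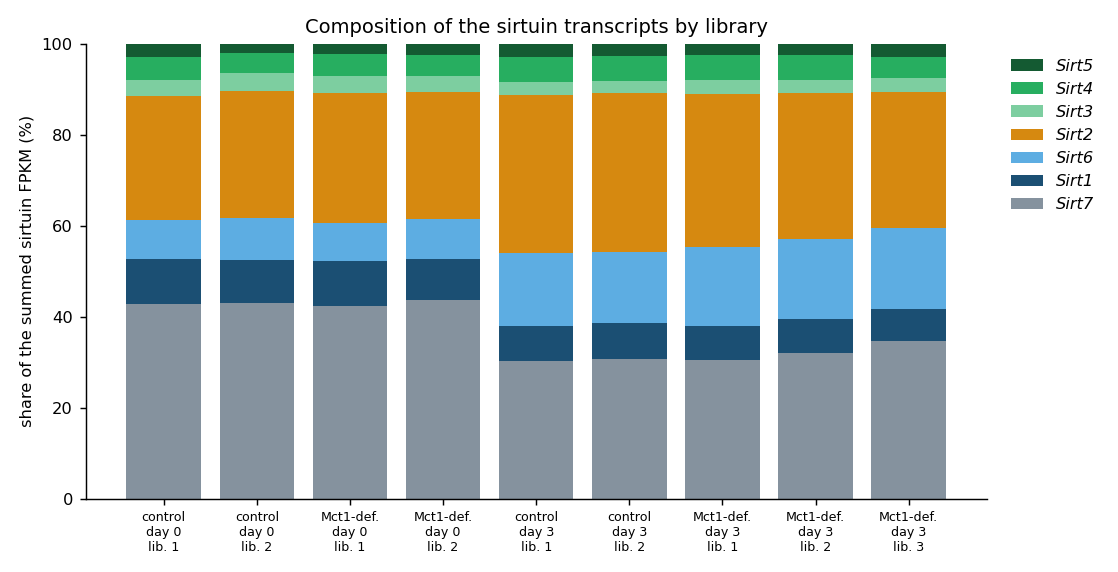
Share of each sirtuin gene in the summed sirtuin FPKM (y axis, percent) in each of the 9 libraries (x axis), with the nuclear members in grey and blue, *Sirt2* in orange and the mitochondrial members in green. *Sirt7* takes 42.3% to 43.7% in the day 0 libraries and 30.2% to 34.6% in the day 3 libraries.

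The sizes of these changes moved with the scaling of the libraries, whose FPKM sums were larger on day 3. Scaling to a common total put the median log2 fold change of all tested genes at -0.31 in the control and -0.30 in *Mct1*-deficient cells, median-of-ratios scaling at 0.06 and 0.06, and quantile normalization at 0.01 and 0.02. The share of risen genes among changed genes was 42.6% in *Mct1*-deficient cells as deposited and 53.3% with median-of-ratios scaling. Relative to the median of all genes, *Sirt6* stood between 0.25 and 0.29 higher in the control and between 0.45 and 0.49 higher in *Mct1*-deficient cells under the 4 scalings, including the common total, under which its control log2 fold change turned to -0.04. *Sirt1* stood between -0.77 and -0.75 and between -0.85 and -0.84 relative to the median, *Sirt7* between -1.22 and -0.99 and between -1.18 and -0.93, and *Sirt3* between -0.77 and -0.61 and between -0.68 and -0.50. These 3 fell under all 4 scalings in both genotypes. *Sirt2*, *Sirt4* and *Sirt5* kept a negative log2 fold change under all 4, but in the control, besides the lost calls of *Sirt2* and *Sirt4* given above, *Sirt5* passed under neither median-of-ratios scaling nor quantile normalization (-0.26, adjusted p = 0.0506, and -0.09, adjusted p = 0.461). In *Mct1*-deficient cells *Sirt5* did not pass under quantile normalization (-0.05, adjusted p = 0.681).

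**Figure D3:**
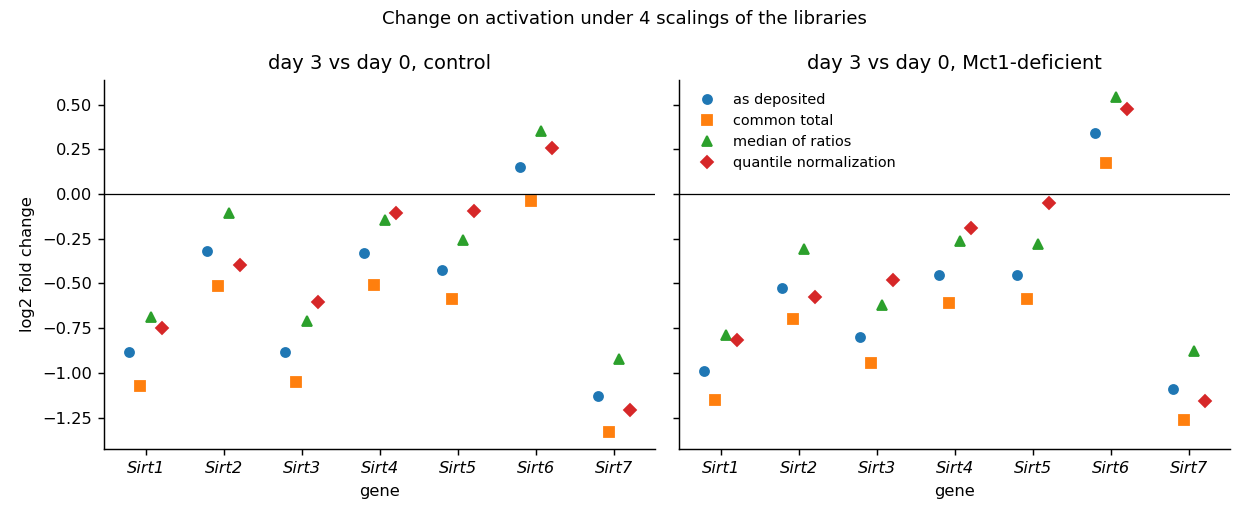
Log2 fold change of each sirtuin gene between day 3 and day 0 (y axes) in control (left) and *Mct1*-deficient cells (right), with the values as deposited and under 3 other scalings of the libraries. *Sirt1*, *Sirt3* and *Sirt7* stay well below 0 under each scaling, while *Sirt6* in the control lies between -0.04 and 0.35.

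The comparison of genotypes on day 3 asked whether loss of *Mct1* altered sirtuin transcripts in activated cells. 1 of the 7, *Sirt2*, was lower in *Mct1*-deficient cells, and none was higher. Over all tested genes 6.03% were higher and 9.21% lower by the same rule, so 1 of 7 is near the share in the whole table, and no sirtuin passed with the log2 limit of 0.5, which 2.42% of tested genes did. The *Sirt2* values of 34.5, 33.8 and 31.2 FPKM lay below the control values of 37.8 and 38.5 FPKM, at 86.9% of the control mean (log2 fold change -0.20, SE 0.0507, 95% interval -0.31 to -0.09, adjusted p = 0.0242). Without *Mct1*-deficient library 3, the lowest, it was -0.16 (adjusted p = 0.0760), without control library 1 it was -0.21 (adjusted p = 0.107), and without control library 2 it was -0.19 (adjusted p = 0.138). Nor did it pass with no filter on low values (adjusted p = 0.0539), median-of-ratios scaling (adjusted p = 0.0572) or quantile normalization (adjusted p = 0.0667).

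*Sirt1* on day 3 was 89.8% of the control mean, with 7.46 to 7.85 FPKM against 8.40 and 8.72 FPKM, and its log2 fold change of -0.14 (SE 0.0564, 95% interval -0.26 to -0.01) did not pass (adjusted p = 0.132). The interval, which is not adjusted for the number of genes, lay below 0. *Sirt4* had a log2 fold change of -0.13 (95% interval -0.30 to 0.04), *Sirt5* of -0.11 (-0.34 to 0.13), *Sirt6* of 0.07 (-0.04 to 0.19), *Sirt7* of 0.01 (-0.11 to 0.14) and *Sirt3* of 0.00 (-0.18 to 0.18), none of which passed (adjusted p from 0.294 to 1). 4 of the 7 were without overlap between genotypes, *Sirt1*, *Sirt2* and *Sirt4* lower and *Sirt6* higher, while 47.1% of all tested genes were without overlap. The summed myeloid markers were 16.2 and 18.0 FPKM in the control and 22.3 to 25.8 FPKM in the *Mct1*-deficient libraries on day 3, and their part in these differences was not tested.

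On day 0 no sirtuin passed between genotypes, with adjusted p from 0.468 to 0.980 from limma. Few genes did, 0.351% of those tested being higher and 0.0647% lower, and 0.277% passing with the log2 limit. *Sirt6* came nearest, with 14 and 14.7 FPKM against 14.9 and 16.3 FPKM in the control (log2 fold change -0.12, 95% interval -0.24 to 0.01). It was the one member without overlap on day 0, as were 38.4% of tested genes. The intervals of the others ran from -0.34 to 0.18 for *Sirt5*, the least precise, to -0.12 to 0.13 for *Sirt2*. 1 of the 2 *Mct1*-deficient day 0 libraries was the one with *Ddx3y*, and its *Sirt1* value, 17.1 FPKM, was the highest and that of the other, 15.4 FPKM, the lowest on day 0. The library with *Ddx3y* also had the highest summed myeloid markers, 2157 FPKM. They came to 1177 FPKM in the other *Mct1*-deficient library and to 1099 and 1334 FPKM in the control. The part of these traits in the day 0 values was not tested.

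**Figure D4:**
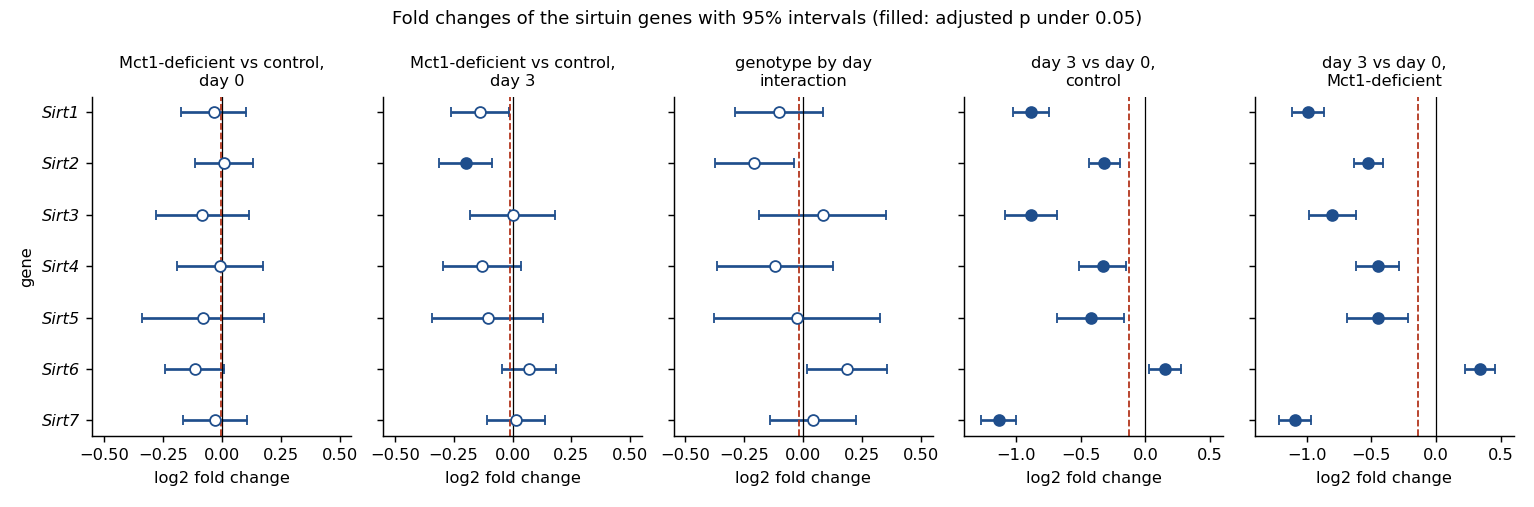
Log2 fold change of each sirtuin gene with its 95% interval from limma in the 5 comparisons (panels), filled where the adjusted p was under 0.05. The solid line is 0 and the dashed line the median of all tested genes. The genotype effects lie within 0.21 of 0 and only *Sirt2* on day 3 is filled among them and the interaction, whereas all 7 are filled on activation in both genotypes.

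The interaction of genotype and day asked whether the genotype effect differed between days, which is also whether activation moved a gene differently in the 2 genotypes. No sirtuin passed, while 3.82% of tested genes were higher and 5.61% lower and 3.23% passed with the log2 limit. Nearest to passing in limma were *Sirt2* (-0.21, SE 0.0752, 95% interval -0.37 to -0.04, adjusted p = 0.116) and *Sirt6* (0.19, SE 0.0770, 95% interval 0.02 to 0.36, adjusted p = 0.158). Their intervals are not adjusted for the number of genes. *Sirt6* was lower in *Mct1*-deficient than in control libraries on day 0 and higher on day 3, without overlap on either day. The larger *Mct1*-deficient than control changes of *Sirt2* and *Sirt6* on activation were therefore not shown to differ between genotypes at this number of libraries. The intervals of the other 5 ran from -0.29 to 0.08 for *Sirt1* to -0.38 to 0.32 for *Sirt5*.

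Genes of NAD+ supply were taken as a list of 12, which holds the enzymes that make NAD+ and also *Nadk* and *Nadk2*, which use it to make NADP+, and *Slc25a51*, which carries it. Of these 9 were tested, and 5 rose and 4 fell in the control (37.0% and 47.5% of all tested genes), while 4 rose, 4 fell and 1 did not pass in *Mct1*-deficient cells (36.4% and 49.1%). The median log2 fold change was 0.28 in the control and 0.01 in *Mct1*-deficient cells, against -0.12 and -0.14 over all tested genes. With a common total, the rises of *Nmnat1*, *Nmnat3* and *Nadk2* in *Mct1*-deficient cells did not pass (adjusted p = 0.166, 0.0708 and 0.0581). Nor did that of *Nmnat1* in the control (adjusted p = 0.342). *Nampt*, the rate-limiting enzyme of the salvage route from nicotinamide, rose from 17.0 to 19.2 FPKM over the day 0 libraries to 47.0 to 52.8 FPKM over the day 3 libraries (log2 fold changes 1.53 and 1.34, adjusted p = 3.46e-10 and 4.48e-10). *Nadsyn1*, which makes NAD+ by the deamidated route, fell (log2 fold changes -0.79 and -0.75), as did *Slc25a51*, the mitochondrial NAD+ carrier (-0.57 and -0.61), and *Nadk*, which turns NAD+ into NADP+ (-0.49 and -0.32, the latter not passing with median-of-ratios scaling). Between genotypes on day 3, *Nadk* was higher in *Mct1*-deficient cells (42.6 to 44.2 against 37.1 and 38.9 FPKM, log2 fold change 0.19, adjusted p = 0.0309) and the other 8 did not pass, *Nampt* among them (-0.09, adjusted p = 0.262). Of all tested genes 6.03% were higher and 9.21% lower in this comparison. *Nadk* did not pass with control library 1 or 2 or *Mct1*-deficient library 2 or 3 of day 3 left out (adjusted p from 0.0763 to 0.218).

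Of 17 genes that use NAD+ or clear nicotinamide 14 were tested, and 5 rose and 8 fell in the control (37.0% and 47.5% of all tested genes) and 4 rose and 8 fell in *Mct1*-deficient cells (36.4% and 49.1%), which is near the share in the whole table. The median log2 fold changes were -0.23 and -0.26, against -0.12 and -0.14 over all tested genes. *Cd38*, an ectoenzyme that breaks down NAD+, had 86.8 to 92.7 FPKM on day 0 and 15.5 to 19.1 FPKM on day 3 (log2 fold changes -2.40 and -2.30, adjusted p = 2.15e-11 and 1.35e-11). *Bst1*, its relative, also fell (-1.67 and -2.01), as did *Parp8* (-1.41 and -1.31). *Parp9*, *Parp14* and *Tiparp*, ADP-ribosyltransferases of interferon or aryl hydrocarbon receptor responses, rose by 1.28, 1.22 and 1.19 in the control and by 1.25, 1.19 and 0.94 in *Mct1*-deficient cells. On day 3 *Parp1*, the main DNA damage sensor among them, was higher (log2 fold change 0.18, adjusted p = 0.0294) and *Parp12* lower (log2 fold change -0.49, adjusted p = 0.00269) in *Mct1*-deficient cells, and 12 of 14 did not pass. Of all tested genes 6.03% were higher and 9.21% lower between genotypes on day 3. With quantile normalization *Parp1* did not pass (adjusted p = 0.0550). *Parp12* passed with each library left out in turn, but *Parp1* did not with control library 1 or 2 or *Mct1*-deficient library 1 or 3 of day 3 left out (adjusted p from 0.0621 to 0.229).

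Of 4 regulators of SIRT1, 3 rose and none fell in each genotype, where 37.0% of all tested genes rose and 47.5% fell in the control and 36.4% rose and 49.1% fell in *Mct1*-deficient cells. *Rps19bp1*, which encodes the SIRT1 activator AROS, rose by 0.78 in the control and 0.69 in *Mct1*-deficient cells, and *Usp22*, which encodes a deubiquitinase that stabilises SIRT1, by 0.45 and 0.44. The third was *Hic1*, a repressor of *Sirt1* transcription, in the control (0.31, adjusted p = 0.00631) and *Ccar2*, which encodes the SIRT1 inhibitor DBC1, in *Mct1*-deficient cells (0.20, adjusted p = 0.00335). Neither of these last values passed with the libraries scaled to a common total (0.18 and 0.03). Between genotypes on day 3, 6.03% of all tested genes were higher and 9.21% lower. *Hic1* was the one regulator of the 4 that differed in this comparison, with 1.56 to 1.73 FPKM in *Mct1*-deficient and 2.33 and 2.42 FPKM in control libraries (log2 fold change -0.35, SE 0.0807, adjusted p = 0.0159). It did not pass with control library 1 or 2 of day 3 left out (adjusted p = 0.0879 and 0.113).

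Genes of known sirtuin substrates were described by place in the cell. Outside mitochondria 12 of 13 were tested, and 3 rose and 7 fell in each genotype (of all tested genes, 37.0% and 47.5% in the control and 36.4% and 49.1% in *Mct1*-deficient cells), with median log2 fold changes of -0.22 and -0.14 against -0.12 and -0.14 over all tested genes. *Foxo1*, a transcription factor of naive B cells, fell from 63.3 to 67.9 FPKM over the day 0 libraries to 19.9 to 23.9 FPKM over the day 3 libraries (log2 fold changes -1.47 and -1.56), and *Foxo3* fell as well (-0.93 and -1.10). *Suv39h1*, a histone H3K9 methyltransferase, rose by 1.02 and 1.02, and *Acly*, which makes cytosolic acetyl-CoA from citrate, by 0.72 and 0.95. In mitochondria 15 of 16 were tested, and 9 rose and 3 fell in each genotype, beside the same shares of all tested genes, with median log2 fold changes of 0.46 and 0.24 against -0.12 and -0.14. *Got2*, the mitochondrial aspartate aminotransferase, had 56.3 to 57.6 FPKM on day 0 and 164 to 172 FPKM on day 3 (log2 fold changes 1.59 and 1.53), and *Idh2*, a SIRT3 substrate that makes NADPH, rose by 0.63 and 0.62. *Acss1*, the mitochondrial acetate-activating enzyme and also a SIRT3 substrate, fell from 40.1 to 41.5 FPKM to 3.98 to 4.53 FPKM (log2 fold changes -2.95 and -3.03). Between genotypes on day 3, *Foxo1* (log2 fold change -0.18, adjusted p = 0.0252) and *Acadl*, a fatty acid oxidation enzyme (-0.22, adjusted p = 0.0135), were lower in *Mct1*-deficient cells and the other 25 of the 27 tested genes did not pass. Of all tested genes 6.03% were higher and 9.21% lower in this comparison. With common-total scaling and quantile normalization *Foxo1* did not pass (adjusted p = 0.0603 and 0.0551). *Foxo1* did not pass with control library 1 or 2 or *Mct1*-deficient library 2 or 3 of day 3 left out (adjusted p from 0.0687 to 0.135), nor did *Acadl* without control library 1 (-0.16, adjusted p = 0.153). The lists were chosen with earlier results of these data known, and no list was set against other genes by a test.

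**Figure D5:**
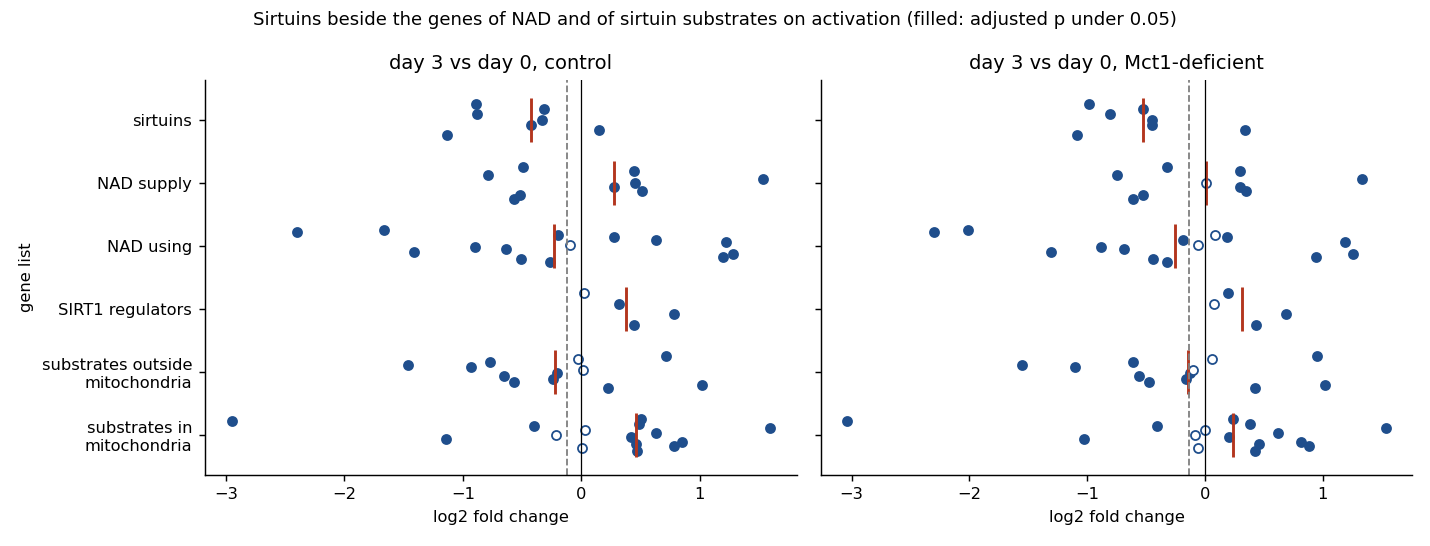
Log2 fold change between day 3 and day 0 (x axes) of the tested genes of the sirtuin, NAD+ and substrate lists (y axis) in control (left) and *Mct1*-deficient cells (right), filled where the adjusted p was under 0.05, with a red line at each list's median and a dashed line at the median of all tested genes. The sirtuin medians lie at -0.42 and -0.52 and those of the mitochondrial substrates at 0.46 and 0.24.

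Across the 9 libraries the sirtuin profiles differed in shape as well as in level. Likeness was measured as the root mean square difference of log2(FPKM + 1) after centring each gene on its own mean over the 9 libraries, so that 0 means the same profile. Among the members, *Sirt2* and *Sirt4* were the closest pair (0.0696), followed by *Sirt1* and *Sirt3* (0.101), *Sirt4* and *Sirt5* (0.121) and *Sirt1* and *Sirt7* (0.121), while *Sirt6* and *Sirt7* were the farthest apart (0.679). The nearest of all tested genes were *Cdip1*, *Jmjd8* and *Esyt2* for *Sirt1* (0.0349 to 0.0388), *Laptm4b*, *Dennd5a* and *Kdm3a* for *Sirt2* (0.0390 to 0.0418), and *Coro1b*, *Itprip* and *Pbx2* for *Sirt3* (0.0463 to 0.0587). For *Sirt4* they were *Plcxd1*, *Zfc3h1* and *Zup1* (0.0448 to 0.0551), and for *Sirt5* *Exoc3*, *Ttll4* and *Nhlrc2* (0.0723 to 0.0740). *Rbm10*, *Ppp2r1a* and *Rbm45* were nearest to *Sirt6* (0.0266 to 0.0381), and *Mroh1*, *Brpf3* and *Tnrc6c* to *Sirt7* (0.0323 to 0.0400). With 4 groups and a large difference between days, these values mostly describe the size of the change between days.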

How the data were processed

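RNA sequencing of 9 libraries of splenic B cells was used, and each was placed in its group of genotype and day by its title. As deposited, the FPKM table holds 17596 genes with 2 decimals, without read counts. The submitters' processing notes name Bowtie2 and GRCm38/mm10, and the study's methods state that a sequencing institute assembled and analysed the library data. The annotation, the counting tool and the use of strand are not given in the sources used here. FPKM hold no depth and the low values showed no step that would give reads, so no counting interval was computed, and precision rests on 2 or 3 libraries per group.

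From the deposited FPKM, log2(FPKM + 1) was computed without further scaling, and the 10823 genes averaging 1 FPKM or more were fitted with limma (version 3.58.1, R 4.3.3) as 4 group means. Variances were moderated with a trend, and p-values adjusted over all tested genes by the Benjamini-Hochberg method. The sign of a genotype change is *Mct1*-deficient minus control, and of an activation change day 3 minus day 0. The same steps were tested on simulated data. Levels, shares and motifs were computed with Python 3.11.15, numpy 2.4.6 and pandas 2.3.3, and figures drawn with matplotlib 3.10.9. Gene positions and shared exonic bases were read from GENCODE on GRCm38, and start regions from RefSeq.

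The members, the gene lists and the alternatives were chosen with earlier results of these data known. 1 marker gene is not reported here. The genes named are the 7 sirtuins, *Slc16a1*, up to 4 changed genes of each list in each direction and comparison, and the 3 tested genes nearest to each sirtuin. Alternatives were pseudocounts of 0.1 and 5, no filter or a mean of at least 5 FPKM, common-total, median-of-ratios and quantile scaling, a block for the replicate number, moderation without a trend, only the groups compared, log2 limits of 0.5 and 1, and each library left out. A block with crossed day 0 control numbers was added after seeing the data.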

Additional observations from a re-analysis of the deposited data

Results flagged for a closer look

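4 genes of the NAD+ and substrate lists had a genotype effect that differed between day 0 and day 3 by the interaction term of limma, which no sirtuin passed. Of 14 tested genes that use NAD+ or clear nicotinamide, 1 was higher and 1 lower. Of 12 tested substrate genes outside mitochondria, 2 were higher. Over all tested genes 3.82% were higher and 5.61% lower by the interaction. *Parp12* had an interaction of -0.82 (SE 0.121, adjusted p = 0.00356). It had 4.49 and 4.61 FPKM in *Mct1*-deficient against 3.43 and 3.42 FPKM in control libraries on day 0, and 3.60 to 4.39 against 5.55 and 6.13 FPKM on day 3. Its interaction passed with each of the 9 libraries left out in turn (-0.89 to -0.76).

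*Parp1* had an interaction of 0.28 (SE 0.0697, adjusted p = 0.0322), with 90.0 and 91.7 FPKM in *Mct1*-deficient against 94.3 and 102 FPKM in control libraries on day 0 and 92.7 to 98.5 against 82.8 and 87.5 FPKM on day 3. It passed in 2 of the 9 fits with a library left out (0.23 to 0.34). *Acly* (0.23, SE 0.0638, adjusted p = 0.0467) and *Trp53* (0.20, SE 0.0545, adjusted p = 0.0468) passed in 0 of the 9 such fits, with values of 0.19 to 0.28 and 0.17 to 0.23. *Trp53*, which encodes p53, had 112 and 116 FPKM in *Mct1*-deficient and 118 and 123 FPKM in control libraries on day 0, and 152 to 154 against 140 and 142 FPKM on day 3.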

How the results depend on the processing

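The number of sirtuins that passed between genotypes on day 3 was 1 and became 0 with no filter, median-of-ratios scaling, quantile normalization, the replicate block and log2 limits of 0.5 and 1, and it ranged from 0 to 1 with a library left out. It was 0 on day 0 and 0 for the interaction under every alternative run. On activation it was 7 in each genotype. In the control it was 4 with median-of-ratios scaling, 5 with quantile normalization, 6 with a common total, with the block crossed and with only the 2 groups compared, 3 with a limit of 0.5, 1 with a limit of 1 and 5 to 7 with a library left out. In *Mct1*-deficient cells it was 6 with quantile normalization, 4 with a limit of 0.5, 1 with a limit of 1 and 7 with any library left out. With a mean of at least 5 FPKM it was 5 in each genotype, all 5 that were tested, since *Sirt3* and *Sirt5* were below that filter. Small effects that did not pass changed sign. On day 3 *Sirt7* was -0.036 with the block, and with a library left out *Sirt3* ranged from -0.035 to 0.035 and *Sirt7* from -0.036 to 0.065. On day 0 *Sirt2* was -0.0039 with a common total and *Sirt4* 0.0015 with median-of-ratios scaling, and with a library left out *Sirt1* ranged from -0.11 to 0.036, *Sirt2* from -0.035 to 0.051, *Sirt3* from -0.21 to 0.047, *Sirt4* from -0.089 to 0.070, *Sirt5* from -0.26 to 0.10, *Sirt7* from -0.058 to 0.0013 and *Slc16a1* from -0.13 to 0.024. In the interaction *Sirt5* was 0.047 with quantile normalization, *Sirt7* was -0.0073 with the block, and with a library left out *Sirt3* ranged from -0.047 to 0.21, *Sirt5* from -0.21 to 0.16 and *Sirt7* from -0.0073 to 0.094. On activation values that had passed also changed sign, since *Sirt6* in the control was -0.040 with a common total, *Hdac11* 0.0036 and *Trp53* -0.021 with quantile normalization in the control, and *Hdac7* 0.022 with median-of-ratios scaling in *Mct1*-deficient cells. The counts of the other lists on activation also moved with scaling. With a common total *Hdac2* and *Hdac4* did not pass in the control (adjusted p = 0.0872 and 0.252 from limma). Under the same scaling *Acadl* did not pass in *Mct1*-deficient cells (adjusted p = 0.203), nor *Parp10* in either genotype (adjusted p = 0.253 and 0.763). The causes were not tested.

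The replicate numbers of the labels gave no sign of pairing, as same-numbered libraries of a genotype correlated at -0.12 to 0.06 in their deviations from the group means across genes. In a group of 2 libraries the deviations mirror each other, so these values cannot settle whether libraries were paired. With the block, *Sirt2* on day 3 was -0.16 (adjusted p = 0.108), and 935 of the 10823 tested genes passed between genotypes on day 3 and 487 in the interaction, against 1650 and 1020 without it. Because number 3 occurs once, the block leaves *Mct1*-deficient library 3 out of the day 3 comparison in effect. With the day 0 control numbers crossed, an alternative chosen after seeing the data, 9067 genes passed on activation in the control, against 9052 with the numbers as labelled. Without a filter 588 genes passed in the interaction and 28 on day 0 (45 with it), 27 passed on day 0 without a trend and 2 with only the day 0 groups in the fit. The share of risen genes in the interaction was 40.5%, and 51.4% with quantile normalization.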

Other observations

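The zinc-dependent histone deacetylases, the other family of lysine deacetylases, use no NAD+, and all 11 of their genes were tested on activation. 4 rose and 4 fell in the control (37.0% and 47.5% of all tested genes) and 3 rose and 4 fell in *Mct1*-deficient cells (36.4% and 49.1%), with median log2 fold changes of -0.05 and -0.04 against -0.12 and -0.14 over all tested genes. *Hdac10*, a polyamine deacetylase, had 30.9 to 33.4 FPKM on day 0 and 9.27 to 11.2 FPKM on day 3 (log2 fold changes -1.71 and -1.52), and *Hdac9* (-0.84 and -1.06) and *Hdac5* (-0.69 and -0.50), both class IIa members, also fell in both genotypes. *Hdac1*, a nuclear class I member, rose from 89.4 to 92.0 FPKM to 119 to 125 FPKM (log2 fold changes 0.41 and 0.43, adjusted p = 3.44e-06 and 9.28e-07 from limma).

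Between genotypes on day 3, 1 of the 11 passed, as lower, beside 6.03% of all tested genes higher and 9.21% lower. *Hdac7*, a class IIa member, had 36.2, 36.9 and 38.6 FPKM in *Mct1*-deficient and 46.9 and 47.0 FPKM in control libraries (log2 fold change -0.33, SE 0.0410, adjusted p = 5.07e-04), and it passed in all 9 fits with a library left out (-0.35 to -0.31). On day 0 it had 42.2 and 43.1 against 49.6 and 48.7 FPKM, a log2 fold change of -0.20 that did not pass (adjusted p = 0.131), and the interaction did not pass either (-0.13, adjusted p = 0.222).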
